A study of Ovis aries with 12 samples.

Results

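The genes described here are the Wnt ligands, their receptors and the secreted proteins that modulate them, in the longissimus dorsi (the long back muscle) of Tan sheep. They were taken as all genes of the expression table whose symbol began with or equalled one of the WNT, FZD, DKK, SFRP, RSPO, TCF7 or KREMEN names, or was FRZB, LRP4, LRP5, LRP6, AXIN1, AXIN2, LEF1, LGR4, LGR5, LGR6 or WIF1, and that had at least 1 CPM (read count scaled to a common library total) in at least 3 libraries. The table held 21257 genes, of which 58 matched by name, and 32 of these met the detection rule and are called the Wnt genes below. The sheep were 5 months old, 9 per diet, and were fed for 60 days after 10 days of adaptation. The control group received the basal feed, and the SUC1, SUC2 and SUC3 groups received that feed with 0.5%, 1% or 2% succinate. RNA sequencing gave 3 libraries per diet, 12 in all. The labels do not tell if a library is 1 animal or several animals pooled. The p-values therefore rest on library-to-library spread alone, part of which may be technical.

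Wnt proteins are secreted lipid-modified signals. They bind Frizzled receptors together with the co-receptors LRP5 or LRP6, and in the canonical branch this stops the axin-based destruction of beta-catenin, which then acts with TCF and LEF factors on transcription. DKK proteins bind LRP5 and LRP6, SFRP proteins and FRZB bind Wnt ligands directly, and R-spondins acting through LGR receptors keep Frizzled proteins at the cell surface. In adult skeletal muscle the pathway is known for its part in satellite cell activation, in fibre regeneration, in the balance of fibrous and fatty tissue and, through LRP4, at the neuromuscular junction.

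Library totals were 15742428 to 18564057 counts, and the Wnt genes took 0.0382% to 0.071% of them. A floor of 3 counts was 0.162 to 0.191 CPM, which covers counting error only. The tissue label was met by its defining markers: ACTA1, skeletal alpha-actin, was at 24210 to 38910 FPKM (counts scaled by gene length and library total) and CKM, muscle creatine kinase, at 8933 to 15640 FPKM. SUC2 replicate 2 (46.9) and SUC3 replicate 1 (-46.1) stood apart from the others (-11 to 8.77) on the second principal component of log2 CPM.

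Most Wnt ligand genes were scarcely read in this muscle. The table held 19 WNT genes, of which 4 were detected, WNT4, WNT5A, WNT9A and WNT11, and WNT1, WNT3, WNT3A, WNT7A, WNT8A and WNT8B had no count in any library, which allows up to 0.0148 CPM over the 202861238 counts of all libraries. Of 10 Frizzled genes 9 were detected, as were all 3 LRP genes, all 5 SFRP and FRZB genes and both axins. DKK1 and DKK4 were not among the detected genes, nor were LGR5, LGR6, KREMEN2, WIF1, LEF1 and the R-spondins other than RSPO3. At the edge of the rule, TCF7 had 1 CPM or more in 4 libraries, while WNT2B did so in 2 and FZD10 in 1. The rule used unscaled library totals. With the TMM scaling used for the tests and the levels below, WNT2B was at 1.322, 1.045 and 1.033 CPM in SUC1. On that scale it would have met the rule, so its absence from the Wnt genes depends on the scaling.

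Per gene length, receptors and intracellular or membrane components led the control libraries. FZD4, a Frizzled known best from blood vessels, was at 13.3 ± 4.78 FPKM (SD, n = 3 as for every mean here), and KREMEN1, a receptor for DKK proteins, at 10.7 ± 2.22 FPKM. AXIN1, the scaffold of the beta-catenin destruction complex, was at 8.75 ± 2.53 FPKM. FZD7, a Frizzled that binds WNT7A in satellite cells of mice, followed at 8.59 ± 2.99 FPKM and FRZB at 7.3 ± 3.91 FPKM. DKK2 came sixth at 7.11 ± 4.6 FPKM, which was the highest level of any secreted modulator in control after FRZB, and their control libraries overlapped. The 4 ligands had control means from 0.794 ± 0.311 FPKM for WNT5A to 1.97 ± 0.851 FPKM for WNT9A. TCF7 was lowest at 0.24 ± 0.13 FPKM. The order was loose: of 31 neighbouring pairs in it, only 3 had control libraries that did not overlap, LRP5 over LRP4, LGR4 over TCF7L1 and SFRP1 over SFRP4.

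**Figure D1:**
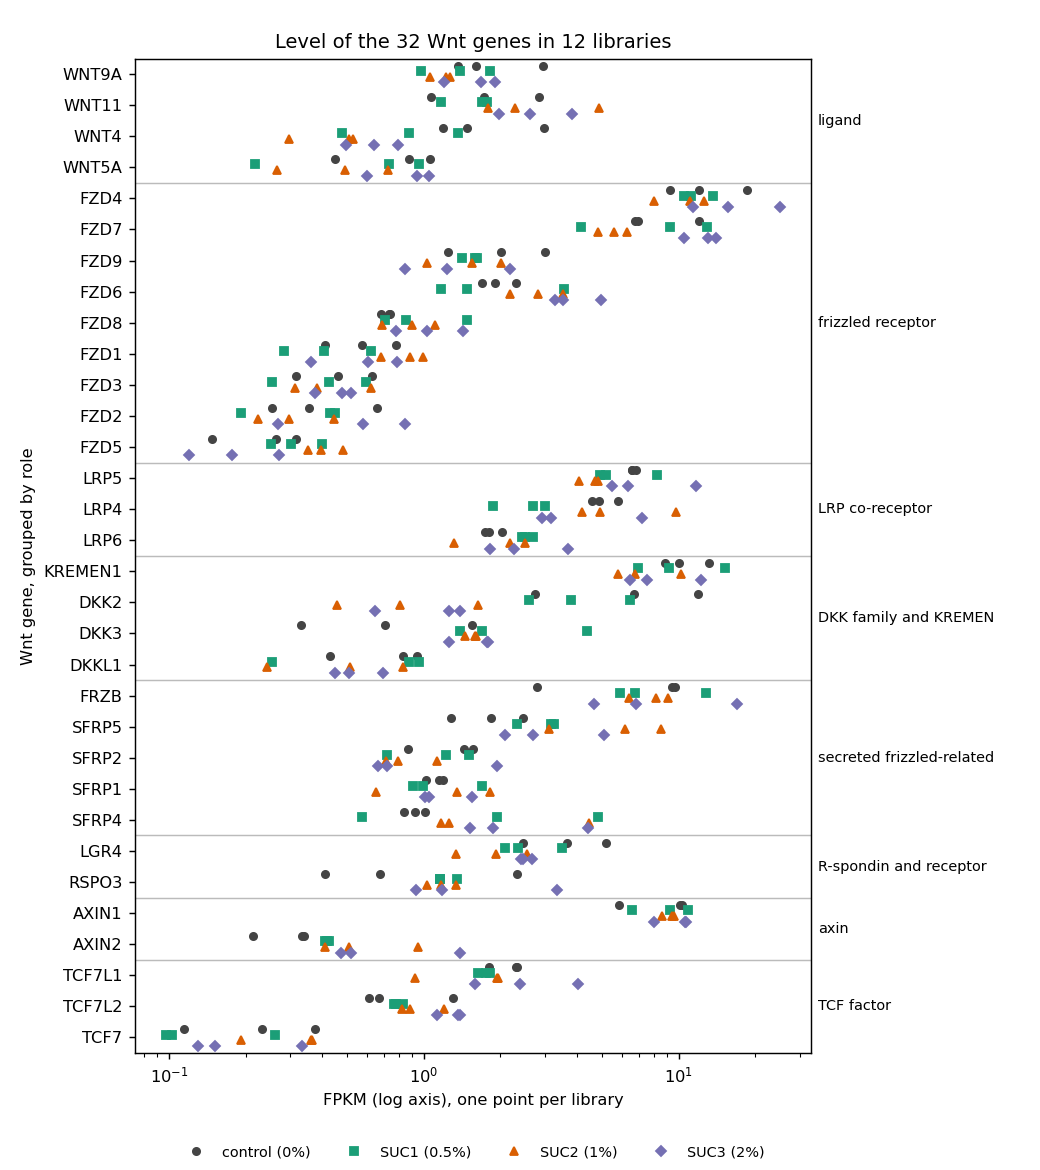
FPKM of each of the 32 Wnt genes (log axis) in the 12 libraries, grouped by role, with 1 point per library and a colour and shape per diet. DKK2 spreads most widely, from 0.458 to 11.9 FPKM, with the SUC2 and SUC3 libraries at its low end, whereas AXIN1 stays within 5.82 to 10.9 FPKM.

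Against control, 2 Wnt genes passed the test in SUC2, both lower, DKK2 and WNT4, and none passed in SUC1 or SUC3. In SUC2 1.43% of all 13319 genes tested passed, 0.773% as higher and 0.661% as lower. By edgeR's quasi-likelihood test 0 of 32 passed in SUC1, where 0% of all genes did, and 0 of 32 in SUC3, where 0.00751% did. At an unadjusted p under 0.05 there were 3 Wnt genes in SUC1, 7 in SUC2 and 5 in SUC3, or 9.38%, 21.9% and 15.6% of them, against 7.61%, 17.9% and 12.4% of all genes. DESeq2 called 0 in SUC1, 4 in SUC2 and 2 in SUC3, where it called 0.537%, 6.32% and 1.81% of all genes. Limma-trend called 0 in SUC1 and in SUC3 with either pseudocount, where it called 0% of all genes. In SUC2 it called DKK2 on log2(FPKM + 1), where 1.19% of all genes passed, and DKK2 and WNT4 on log2(FPKM + 0.1), where 1.47% passed. Across diets the signs of the 32 genes were mixed, with 14 positive in SUC1, 15 in SUC2 and 19 in SUC3. Of all genes 48.3%, 49.8% and 49% were positive. The median log2 fold changes of the 32 were -0.07, -0.06 and 0.14, and those of all genes -0.01, -0.00269 and -0.01. The 3 comparisons share the control libraries.

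**Figure D2:**
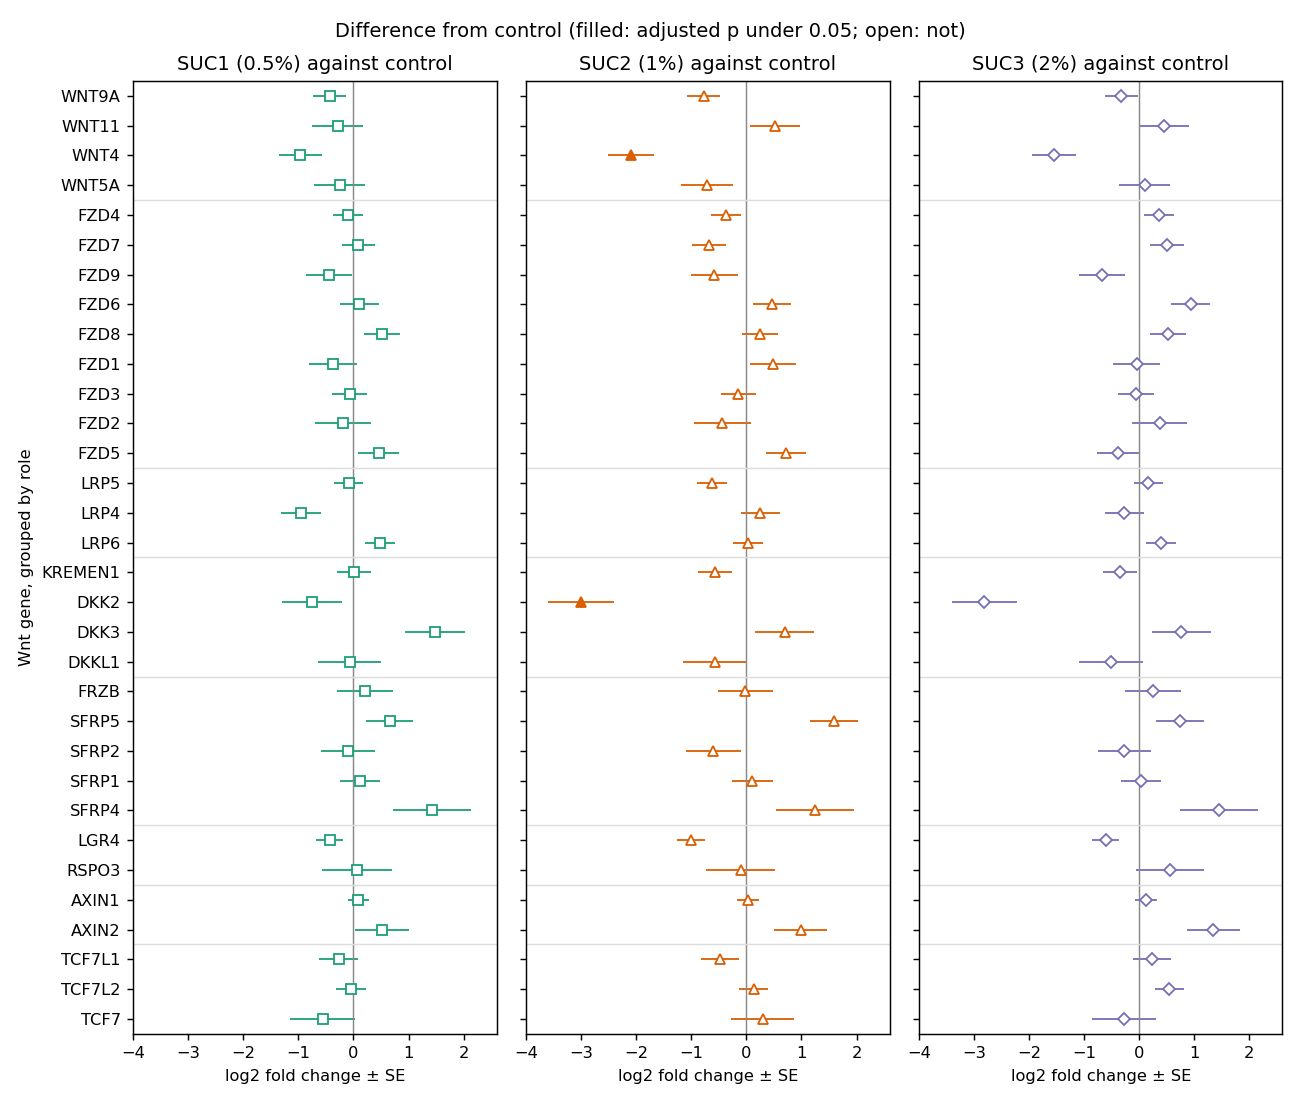
Log2 fold change ± SE of each Wnt gene in SUC1, SUC2 and SUC3 against control, with filled symbols for an adjusted p under 0.05. DKK2 (-3.00) and WNT4 (-2.10) in SUC2 are the only filled symbols, and the same genes lie farthest to the left in SUC3.

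DKK2 encodes a secreted Dickkopf protein that binds LRP5 and LRP6 and can act for or against Wnt signalling depending on the partner present. The table placed it on chromosome 6 from 18492309 to 18618733 on the plus strand. Its read counts were 739, 408 and 173 in control replicates 1 to 3, 408, 229 and 149 in SUC1, 111, 47 and 27 in SUC2, and 89, 41 and 79 in SUC3. In CPM these were 51.0, 22.2 and 9.92 for control, 24.5, 14.1 and 10.3 for SUC1, 5.80, 2.78 and 1.67 for SUC2, and 4.75, 2.30 and 4.73 for SUC3. Every SUC2 and SUC3 library was thus below every control and SUC1 library, while the control and SUC1 libraries overlapped. DKK2 fell 8.02-fold in SUC2, from a control mean of 27.7 ± 21.1 CPM to 3.42 ± 2.14 CPM (difference of -3.00 ± 0.60 on the log2 scale, SE, adjusted p = 0.0332). In SUC3 the mean was 3.93 ± 1.41 CPM and the log2 fold change -2.81 ± 0.59, which did not pass (adjusted p = 0.139; from 0.000241 by DESeq2 to 0.397 without control replicate 2). Without control replicate 1 it was -2.03.

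SUC1, the lowest dose, did not separate from control in DKK2. Its mean was 16.3 ± 7.38 CPM and its log2 fold change -0.76 ± 0.54 (adjusted p = 0.832), which became 0.02 without control replicate 1. Set against SUC1 directly, SUC2 was at -2.24 ± 0.59 (adjusted p = 0.429) and SUC3 at -2.05 ± 0.58 (adjusted p = 0.458), and neither passed. SUC3 against SUC2 was at 0.19 (adjusted p = 0.936). In rank by FPKM among the Wnt genes DKK2 was number 6 with control feed, 7 with SUC1, 21 with SUC2 and 22 with SUC3. Over succinate percent its slope was -1.48 ± 0.33 log2 units per 1% (adjusted p = 0.173), and the joint test of the 4 diets gave an adjusted p = 0.0703.

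WNT4 is a ligand that signals mainly outside the beta-catenin branch in many tissues and has been linked to satellite cell quiescence in mice. The table gave chromosome 2, 244422061 to 244450787, plus strand. The counts were low: 72, 176 and 91 in control, 84, 52 and 27 in SUC1, 35, 29 and 17 in SUC2, and 31, 49 and 39 in SUC3. Control libraries were at 4.97, 9.58 and 5.22 CPM, and SUC1 libraries at 5.05, 3.20 and 1.86 CPM. In SUC2 the values were 1.83, 1.71 and 1.05 CPM and in SUC3 1.66, 2.74 and 2.33 CPM. Of the 9 succinate libraries 8 lay below the whole control range, the exception being SUC1 replicate 1. WNT4 fell 4.28-fold in SUC2, from a control mean of 6.59 ± 2.6 CPM to 1.53 ± 0.42 CPM (-2.10 ± 0.41 on the log2 scale, adjusted p = 0.0332). In SUC3 its mean was 2.25 ± 0.55 CPM and the log2 fold change -1.55 ± 0.40 (adjusted p = 0.169), and in SUC1 3.37 ± 1.60 CPM and -0.96 ± 0.39 (adjusted p = 0.582). Neither of these passed. WNT4 in SUC2 stood at -1.13 ± 0.41 against SUC1 (adjusted p = 0.480), its slope was -0.77 ± 0.24 per 1% (adjusted p = 0.270), and the joint test gave an adjusted p = 0.0967. In bulk muscle, fewer cells that express a gene and less of its RNA per cell cannot be told apart.

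**Figure D3:**
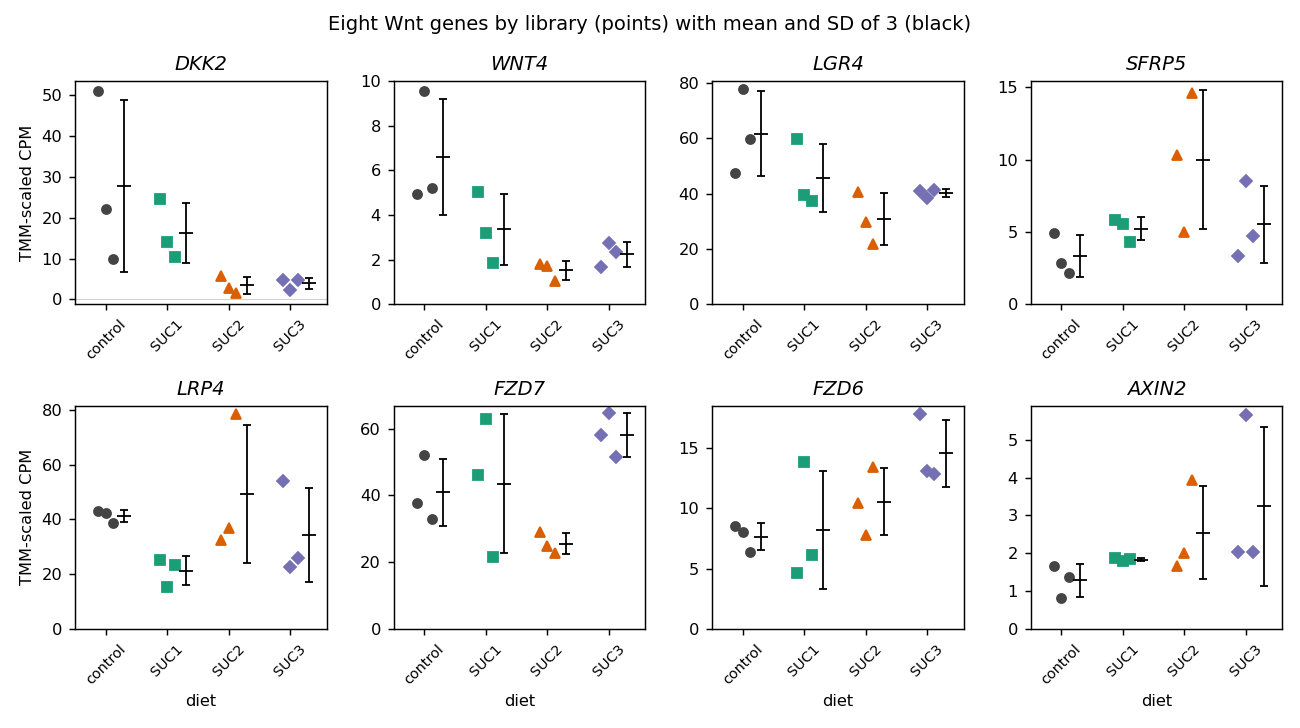
TMM-scaled CPM of 8 Wnt genes in each library (points) with the mean and SD of 3 libraries per diet (black). DKK2 and WNT4 are low in all SUC2 and SUC3 libraries, SFRP5 is highest in SUC2 replicate 3 at 14.6 CPM, and AXIN2 in all 9 succinate libraries lies above its control range of 0.82 to 1.66 CPM.

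Both SUC2 calls were lost in some fits with 1 library left out. The DKK2 call was lost without control replicate 1 (-2.22, adjusted p = 0.0642), control replicate 2 (0.0926), control replicate 3 (0.0845), SUC1 replicate 2 (0.0505), SUC2 replicate 2 (0.0654) or SUC2 replicate 3 (0.138), and in a fit of the 2 diets alone (0.059). WNT4 lost its call without control replicate 2 (-1.73, adjusted p = 0.144), control replicate 3 (0.102), SUC1 replicate 2 (0.0505), SUC2 replicate 1 (0.0599) or SUC2 replicate 3 (0.138), and by limma-trend on log2(FPKM + 1) (-0.95, 0.0519). Both directions were negative in every fit run. Without SUC2 replicate 2 and SUC3 replicate 1, the libraries that stood apart, DKK2 was at -2.87 (adjusted p = 0.0783) and WNT4 at -2.18 (adjusted p = 0.0542), and SFRP5 passed in their place (0.045).

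**Figure D4:**
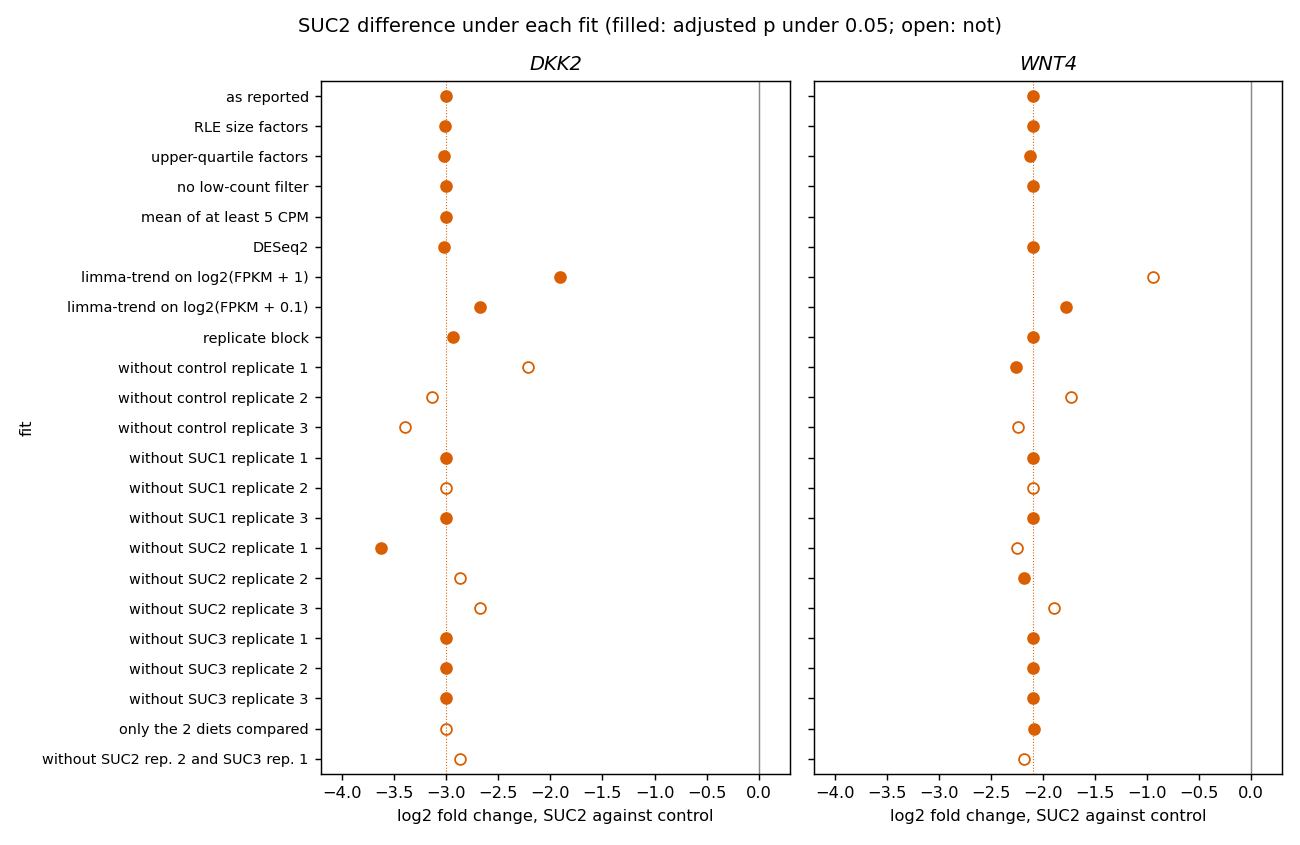
Log2 fold change of DKK2 and WNT4 in SUC2 against control under the reported fit and each alternative, filled where the adjusted p was under 0.05. All points are negative, from -3.63 to -1.91 for DKK2 and from -2.26 to -0.95 for WNT4, and WNT4 has no point under the minimum mean of 5 CPM.

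The other detected ligands overlapped more between diets. WNT9A was at 7.29 ± 2.48 CPM in control and 4.25 ± 0.43 CPM in SUC2, where its 3 libraries (3.82 to 4.69 CPM) lay just under the lowest control library at 4.99 CPM. WNT5A, a ligand of the branch that acts without beta-catenin, was at 5.96 ± 1.74 CPM in control and 3.64 ± 1.72, 5.00 ± 2.90 and 6.42 ± 1.87 CPM in SUC2, SUC1 and SUC3. WNT11, a relative of WNT5A in function, was at 3.90 ± 2.34 CPM in control and 5.59 ± 2.94 CPM in SUC2. None of these 3 passed in any comparison.

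Among Frizzled receptors none passed. FZD4 ranked first by FPKM in each diet, with 77.0, 120 and 84.9 CPM in control and 167, 79.2 and 115 CPM in SUC3. FZD7 was at 37.7, 52.2 and 32.8 CPM in control, 29.0, 24.9 and 22.9 CPM in SUC2 and 58.1, 64.7 and 51.5 CPM in SUC3. Its SUC2 libraries were below every control library and its SUC3 libraries above every SUC2 library. SUC3 against SUC2 gave FZD7 a log2 difference of 1.18 ± 0.31 (adjusted p = 0.174), a comparison singled out after its values were seen, and DESeq2 called it (adjusted p = 0.0219). The joint test gave FZD7 an adjusted p = 0.227. FZD6, which in many settings restrains the canonical branch, was at 8.48, 8.0 and 6.36 CPM in control and 17.7, 13.1 and 12.8 CPM in SUC3. The SUC3 libraries did not overlap control (log2 fold change 0.93 ± 0.35, adjusted p = 0.306), and its slope was 0.49 ± 0.15 per 1% (adjusted p = 0.277). FZD5 was scarce, at 1.64 ± 0.41 CPM in control, 2.71 ± 0.52 CPM in SUC2 and 1.25 ± 0.49 CPM in SUC3. The remaining Frizzled genes, FZD1, FZD2, FZD3, FZD8 and FZD9, overlapped control in each diet, with control means from 1.54 ± 0.63 CPM for FZD2 to 5.93 ± 1.31 CPM for FZD3.

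LRP4 and LRP6 stood apart from control in SUC1, in opposite directions, and LRP5 did so in SUC2. LRP4, the receptor of neural agrin at the neuromuscular junction and a binder of Wnt antagonists, was at 43.1, 42.2 and 38.8 CPM in control and 25.2, 15.4 and 23.4 CPM in SUC1. SUC1 lay below control without overlap (log2 fold change -0.96 ± 0.37, adjusted p = 0.540), whereas SUC2 ranged from 32.7 to 78.4 CPM with SUC2 replicate 3 on top. LRP5 was at 35.3 ± 4.06 CPM in control and 22.9 ± 2.73 CPM in SUC2, without overlap, and at 39.4 ± 15.4 CPM in SUC3. LRP6 was at 22.2, 16.7 and 21.0 CPM in control and 29.2, 26.1 and 28.3 CPM in SUC1, also without overlap. No LRP gene passed. Without overlap, 6.81% of all genes were lower and 7.4% higher in SUC1, and 10.6% were lower in SUC2.

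The other DKK-related genes overlapped control in each diet. DKK3, a divergent Dickkopf that does not bind LRP6, was at 4.62, 0.76 and 1.78 CPM in control and 4.51, 11.3 and 3.86 CPM in SUC1 (log2 fold change 1.48 ± 0.54, adjusted p = 0.513). SUC1 replicate 2 carried much of this, and without it the value was 0.83. KREMEN1 was at 87.6 ± 16.04 CPM in control and 59.2 ± 18.4 CPM in SUC2, with overlap. DKKL1 was scarce, at 1.40 ± 0.65 CPM in control and 0.93 ± 0.53 CPM in SUC2, and its locus overlapped TEAD2 on the opposite strand, so its few reads are uncertain.

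By edgeR on all 12 libraries, the secreted Frizzled-related genes did not pass in any comparison. SFRP5, an antagonist best known from fat tissue, was at 4.97, 2.89 and 2.18 CPM in control, 5.83, 5.53 and 4.34 CPM in SUC1, 10.4, 5.02 and 14.6 CPM in SUC2 and 3.37, 8.51 and 4.73 CPM in SUC3. Its SUC2 libraries lay above control, though SUC2 replicate 2 and control replicate 1 were nearly level (log2 fold change 1.59 ± 0.43, adjusted p = 0.0793). Its call depended on the tool and on the libraries used. DESeq2 called it (adjusted p = 0.0119), and so did edgeR without SUC2 replicate 2 (1.91, adjusted p = 0.0439). With 1 library left out, the edgeR adjusted p ranged from 0.0439 to 0.27. SFRP4 was at 1.79, 1.52 and 1.38 CPM in control and 3.37, 8.18 and 1.03 CPM in SUC1 (log2 fold change 1.43 ± 0.71, adjusted p = 0.692), and was 0.50 without SUC1 replicate 2. SFRP4 was at 2.04, 1.83 and 7.34 CPM in SUC2 and 2.35, 3.025 and 7.48 CPM in SUC3. Of the 9 succinate libraries 8 lay above every control library in SFRP4, the exception being SUC1 replicate 3. SUC2 replicate 2 and control replicate 1 were nearly level. FRZB, SFRP1 and SFRP2 overlapped control in each diet, and FRZB ranged from 6.97 to 30.3 CPM within control alone.

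LGR4, a receptor through which R-spondins act, was at 47.4, 77.9 and 59.6 CPM in control, 59.8, 39.5 and 37.5 CPM in SUC1, 40.6, 29.8 and 22.0 CPM in SUC2 and 41.0, 38.6 and 41.3 CPM in SUC3. As with WNT4, 8 of 9 succinate libraries lay below every control library and SUC1 replicate 1 did not. The SUC2 log2 fold change was -1.002 ± 0.25 (adjusted p = 0.0673; DESeq2 0.00994), and the joint test gave an adjusted p = 0.205. Its ligand RSPO3 was at 6.48, 1.47 and 0.97 CPM in control and 2.41, 3.01 and 2.78 CPM in SUC2, so control spanned the SUC2 values.

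Downstream, AXIN1 was nearly flat, at 45.6 ± 8.85 CPM in control and 46.7 to 49.7 CPM on average in the succinate diets. AXIN2, a feedback gene that beta-catenin signalling switches on in many tissues, was at 1.66, 0.82 and 1.38 CPM in control, 1.86, 1.78 and 1.86 CPM in SUC1, 1.67, 2.01 and 3.95 CPM in SUC2 and 2.03, 5.66 and 2.04 CPM in SUC3. All 9 succinate libraries were above all 3 control libraries, though SUC2 replicate 1 and control replicate 1 were nearly level. The SUC3 log2 fold change was 1.34 ± 0.48 (adjusted p = 0.288), or 0.67 without SUC3 replicate 2, and the slope 0.65 ± 0.22 per 1% (adjusted p = 0.299), or 0.365 without the same library. TCF7L2, the TCF factor of many adult tissues, was at 4.40 ± 1.54 CPM in control and 6.44 ± 0.45 CPM in SUC3. TCF7L1 was at 5.99 ± 1.23 and 7.01 ± 2.97 CPM, and TCF7 reached 1.15 CPM at most.

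Counted over the 32 genes, 6 were lower without overlap in SUC2 (DKK2, WNT4, LGR4, WNT9A, LRP5 and FZD7), or 18.8%, where 10.6% of all genes were. Higher without overlap were 4 in SUC2 (AXIN2, FZD5, SFRP4 and SFRP5), or 12.5%, where 11.5% of all genes were. In SUC3 3 were lower and 3 higher (9.38% each), where 8.88% and 9.15% of all genes were. In SUC1 1 was lower (3.12%) and 2 higher (6.25%), where 6.81% and 7.4% of all genes were. None of these shares was tested.

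Between the succinate diets 0 of 32 Wnt genes passed by edgeR in SUC2 against SUC1, in SUC3 against SUC1 or in SUC3 against SUC2, where 0%, 0% and 0.015% of all genes did. At an unadjusted p under 0.05 there were 6, 4 and 4, or 18.8%, 12.5% and 12.5% of the 32, against 8.57%, 7.31% and 11.5% of all genes. DESeq2 called DKK2 in the first 2 and FZD7 in the third, where it called 0.357%, 0.508% and 1.83% of all genes. Limma-trend on log2(FPKM + 1) called 0 in each, with 0.015%, 0% and 0.03% of all genes. Without overlap, LRP4 was higher (7.23% of all genes) and DKK2, LRP5, LRP6 and WNT4 lower (6.43%) in SUC2 than in SUC1. In SUC3 against SUC1, AXIN2, TCF7L2 and WNT11 were higher (5.97%) and DKK2 and FZD5 lower (6.06%). In SUC3 against SUC2, FZD7 and LRP5 were higher (7%) and FZD5 lower (7.46%). The joint test called 0 (0.0225% of all genes) and the slope 0 (0.00751% of all genes). These 2 tests had 7 and 5 at an unadjusted p under 0.05, or 21.9% and 15.6% of the 32, against 14.7% and 10.8% of all genes. DESeq2 called 2 in the joint test, DKK2 and WNT4, and DKK2 in the slope, where it called 6% and 0.952% of all genes, and limma-trend on log2(FPKM + 1) called 0 in both, with 0.0375% and 0% of all genes.

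The rest of the pathway gave few calls. Of 23 tested genes of Wnt secretion and extracellular handling and 35 intracellular beta-catenin components, 0 passed in any diet against control. At an unadjusted p under 0.05 the first list had 4, 4 and 3 and the second 3, 5 and 6 genes in SUC1, SUC2 and SUC3, where 7.61%, 17.9% and 12.4% of all genes were. The smallest p in SUC2 belonged to SDC4, a heparan sulfate proteoglycan, at 182 ± 13.1 against 64.2 ± 22.4 CPM in control, and to BTRC, the ubiquitin ligase subunit that recognises phosphorylated beta-catenin, at 22.8 ± 3.86 against 38.8 ± 2.89 CPM. Of 35 planar cell polarity and calcium branch genes 2 rose in SUC2 and none fell, where 0.773% of all genes rose and 0.661% fell. Among them was PRICKLE3, from 4.50 ± 0.49 to 10.3 ± 2.49 CPM (adjusted p = 0.0422). Of 33 reported beta-catenin target genes 1 passed in SUC2, where 1.43% of all genes did, FOSL1, an AP-1 subunit with many other inputs, which rose from 0.45 ± 0.21 to 3.42 ± 1.80 CPM (adjusted p = 0.0332). Neither list had a call in SUC1 or SUC3. At an unadjusted p under 0.05 the polarity list had 3, 9 and 8 genes in SUC1, SUC2 and SUC3. The target list had 4, 6 and 6, where 7.61%, 17.9% and 12.4% of all genes were. FOSL1 lost its call when SUC2 replicate 2 (0.0619), SUC2 replicate 3 (0.0966), control replicate 2 (0.144) or control replicate 3 (0.116) was left out. PRICKLE3 kept its call in 10 of 22 alternatives and lost it without SUC2 replicate 3 (0.162), among others. Median log2 fold changes in SUC2 were 0.07, 0.03, -0.08 and 0.19 for the 4 lists, where the median of all genes was -0.00269.

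Summed levels of markers of other cell types differed between the same libraries. Immune cell markers summed to 13.7 to 18.95 FPKM in control and 25.0 to 43.8 FPKM in SUC2, with 13 of 13 tested genes positive. Adipocyte markers summed to 97.5 to 123 FPKM in control and 162 to 258 FPKM in SUC2, with 10 of 12 positive, and fibroblast markers to 202 to 276 FPKM and 326 to 393 FPKM, with 14 of 15 positive. Satellite cell markers summed to 71.2 to 79.5 FPKM in control and 108 to 116 FPKM in SUC2, although 7 of 11 tested genes were negative. SDC4 stood in this list and in the list of Wnt secretion. Tendon and perimysium markers were at 36.9 to 97.6 FPKM in control and 22.2 to 39.0 FPKM in SUC2, so the ranges overlapped. Of 9 tested genes in that list 8 were negative and 1 was called lower, CILP2. Of these lists none had a marker at 0 in all libraries, and no other member of them passed in SUC2. Endothelial, smooth muscle and pericyte, nerve and Schwann cell, fibre and erythroid markers also overlapped control in SUC2. Their 1 call was ABCC9 of the smooth muscle and pericyte list, which was lower. Over all genes tested, 0.661% were called lower in SUC2 and 49.8% were positive. In SUC3, endothelial markers summed to 128 to 261 FPKM against 83.3 to 119 FPKM in control, with 13 of 13 positive, and adipocyte markers to 131 to 300 FPKM, with 12 of 12 positive. Fibroblast markers summed to 336 to 435 FPKM in SUC3, with 13 of 15 positive. Satellite cell markers overlapped control in SUC3, at 74.0 to 111 FPKM, with 9 of 11 positive. Immune cell markers were at 14.9 to 16.7 FPKM in SUC3, within their control range, with 5 of 13 positive. Tendon and perimysium markers overlapped control in SUC3, at 32.2 to 94.0 FPKM, with 2 of 9 positive. In SUC1, fibroblast markers summed to 296 to 572.5 FPKM, with 13 of 15 positive, and adipocyte markers to 166 to 199 FPKM, with 10 of 12 positive. Satellite cell markers summed to 81.1 to 101 FPKM in SUC1, although 5 of 11 tested genes were negative. These SUC1 sums all lay above their control ranges. Over all genes tested, 49% were positive in SUC3 and 48.3% in SUC1. The part of these cell types in the DKK2 and WNT4 results was not tested.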

How the data were processed

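The authors deposited raw read counts by gene and library, beside FPKM values (counts scaled by listed gene length and library total) of their own. FPKM recomputed from the counts, lengths and totals differed by at most 5.11e-15 in relative terms. The aligner, the counting program and strand use were not given in the sources used here. The genome builds listed were GRCm38 and mm10, per the submitters' processing notes, which are mouse assemblies, whereas the table carried sheep chromosomes and descriptions. Coordinates are therefore printed as the table gave them, with chromosome labels looked up by GeneID in the ARS-UI_Ramb_v3.0 gene table.

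Genes were kept with the edgeR function filterByExpr, and all 32 Wnt genes passed. Counts were scaled by TMM, and 1 quasi-likelihood model with diet as the only factor was fitted to the 12 libraries with edgeR 4.0.16 (R 4.3.3, 8 residual degrees of freedom). The slope over succinate percent had its own fit. All tests were two-sided, and p-values were adjusted across the 13319 genes by the Benjamini-Hochberg method. Each standard error is the size of the log2 fold change divided by the root of its F statistic. Alternatives used other scalings and filters, DESeq2 1.42.0, limma-trend 3.58.1 on log2(FPKM + 1) and log2(FPKM + 0.1), single libraries left out, the compared diets alone, a replicate block and other detection rules. The Wnt genes, the pathway lists and the marker lists were chosen with earlier results of these data known. Of 267 list symbols 259 were in the table, 9 of them found through the reference. Full statistics were given for DKK2, for Wnt genes that passed, and for the 4 with the smallest p in each comparison with control, the joint test and the slope. Levels in CPM are TMM-scaled means ± SD over 3 libraries. One gene of the polarity list that passed in SUC2 is not reported here.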

Additional observations from a re-analysis of the deposited data

Results flagged for a closer look

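WNT2B, a Wnt ligand that missed the detection rule on unscaled totals, was picked because its succinate libraries lay above control. That lack of overlap is therefore a description and not a test. All 3 libraries of each succinate diet lay above all 3 control libraries, which were at 0.41, 0.33 and 0.34 CPM. Of all genes 7.4%, 11.5% and 9.15% were higher without overlap in SUC1, SUC2 and SUC3. The means were 1.13 CPM in SUC1, 0.816 CPM in SUC2 and 0.634 CPM in SUC3, against 0.36 ± 0.05 CPM in control (SD, n = 3). By edgeR, the SUC1 log2 fold change was 1.64 ± 0.44 (adjusted p = 0.356). The value for SUC2 was 1.16 ± 0.44 (adjusted p = 0.189), and that for SUC3 was 0.81 ± 0.45 (adjusted p = 0.486). None passed. Control libraries held 6 counts each, close to the floor of 3.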

How the results depend on the processing

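Scaling by RLE or upper quartiles moved the median of all genes by less than 0.1 log2 units and changed no count of Wnt genes called. The SUC2 count of 2 was 1 with a minimum mean of 5 CPM (WNT4 was then not tested), 4 by DESeq2, 1 by limma-trend on log2(FPKM + 1), 1 in the fit of the 2 diets alone and 1 (SFRP5) without SUC2 replicate 2 and SUC3 replicate 1, a choice made after seeing the data. Leaving out single libraries gave 0 to 2, with 0 without control replicate 2, control replicate 3, SUC1 replicate 2 or SUC2 replicate 3. DESeq2 counts were 2 in SUC3, 1 each in SUC2 against SUC1, SUC3 against SUC1, SUC3 against SUC2 and the slope, and 2 in the joint test, each 0 by edgeR. Without a low-count filter the joint count was 1 (DKK2, adjusted p = 0.033). Signs turned for DKK2 in SUC1 without control replicate 1 (0.0202; range with 1 library left out -1.18 to 0.0202), and in SUC3 against SUC2 without SUC2 replicate 3 (-0.135; range -0.135 to 0.817) or without both libraries named above (-0.107). The cause was not tested. Same-numbered libraries correlated from -0.207 to 0.216 in their deviations from diet means, and differently numbered ones from -0.287 to 0.271. Of 12 libraries 5 correlated best with their own number. No pairing by replicate number was seen, but with 3 libraries per diet these values cannot exclude one. With the replicate block the SUC2 count was 2 and no other count of Wnt genes changed, while FOSL1 (0.0538) and PRICKLE3 (0.0501) no longer passed. Genes near 1 CPM, such as TCF7 and DKKL1, are limited by depth.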
